A study of Mus musculus with 2 samples.

Results

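Genes of microglia and macrophages were examined in RNA-seq of mouse optic nerve at postnatal day 12. The set comprised 37 genes, chosen by symbol for homeostatic microglia, phagocytosis and border macrophages, out of 23950 gene symbols in the tables. They were sorted here into 11 homeostatic microglia genes, 11 genes shared across myeloid cells, 2 ligands of the receptor CSF1R, 8 phagocytic and activation genes and 5 border macrophage genes. All 37 had 1 entry in each library, and 36 reached the minimum of 1 FPKM (fragments per kilobase of transcript, scaled to the mapped fragments of a library) used for counting, each of them in both libraries. The exception was Runx1, a transcription factor of blood cell formation, at 0.829 FPKM in the library labelled cKO and 0.666 FPKM in the library labelled control.

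The study compared a conditional knockout of Hdac3, a histone deacetylase, with its control, in the context of the choice between oligodendrocyte and astrocyte fate. The knockout group was Hdac3f/f; Olig1-cre and the control group Hdac3f/+; Olig1-cre, both on a mixed strain background, so control mice also carried the recombinase and 1 floxed allele. Olig1-cre acts in cells that express Olig1, mainly the oligodendrocyte lineage, whereas microglia and macrophages descend from blood-forming progenitors. There was 1 library per group, and the labels do not state how many nerves or animals each held. Xist (23.7 FPKM in cKO and 21.9 FPKM in control) and the Y-linked Ddx3y (4.59 FPKM in cKO and 7.72 FPKM in control) were present in both, so each library held RNA of both sexes.

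With 1 library per group no test was possible, and every difference below describes these libraries rather than the genotypes. In the shorter form, cKO and control name the libraries by these labels. A difference is log2 of cKO-labelled FPKM plus 1 over control-labelled FPKM plus 1. A gene was counted when this reached 2-fold and the interval bounds deposited with each FPKM were separate between the libraries. Of 14154 genes above the minimum, 4.73% were counted higher and 4.51% lower in the library labelled cKO. Their log2 differences had a median of 0.12 and quartiles of -0.17 and 0.43. Hdac3 itself was at 38.04 FPKM in the library labelled cKO and 36.4 FPKM in the library labelled control, so its level over the whole gene did not separate the labels, and directions refer to the libraries as labelled. The oligodendrocyte genes Mbp and Mog were lower in the library labelled cKO, with log2 differences of -2.99 and -2.68. Of the astrocyte genes, Aqp4 was at 153 FPKM in the library labelled cKO and 181 FPKM in the library labelled control (log2 -0.24). Slc1a3 went the other way, at 481 FPKM in cKO and 288 FPKM in control (log2 0.74). Gfap, at 3997 FPKM in the library labelled control, had the status HIDATA (too many fragments) and no estimate in the library labelled cKO. Read depth is unknown. The median half-width of the members' deposited intervals, relative to the midpoint, was 5.38% in the library labelled cKO and 12.0% in the library labelled control. The FPKM lay above its own interval for 16 members in the library labelled cKO and for 7 in the library labelled control, and below it for 0 in each. For these members the rule of separate intervals used bounds that do not hold the reported FPKM. The reason was not tested.

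Microglia are the resident macrophages of nervous tissue. They depend on signals through CSF1R, on the transcription factor PU.1 (encoded by Spi1) and on SALL1, and they keep a homeostatic programme of surface receptors that read nucleotides, chemokines and lipids. Border macrophages sit in the meninges and along vessels, share much of the myeloid programme with microglia, and are told from them by scavenger receptors such as CD206 and CD163. In the optic nerve, microglia lie among the axons and the forming myelin, and border macrophages in the meningeal sheath.

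The members differed unevenly between the libraries. Of the 36 tested, 8 (22.2%) were counted higher in the library labelled cKO and 0 lower, beside 4.73% and 4.51% of all tested genes. The 8 were Mrc1, Cd163, F13a1 and Pf4 of the border macrophage genes, Fcgr3 and Fcer1g of the shared myeloid genes, Spp1 of the phagocytic genes and Olfml3 of the homeostatic genes. Regardless of size, 25 members (69.4%) lay higher with separate intervals, beside 38.4% of all tested genes, and 3 (8.33%) lay lower, beside 22.5%. With a threshold of 1.5-fold, 19 members were counted higher and 0 lower, beside 16% and 8.85% of all tested genes. The median log2 difference of the tested members was 0.61, and 27 of them (75%) lay above 0, beside 61.4% of all tested genes. In whole nerve, fewer cells of a type and less RNA per cell cannot be told apart.

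**Figure D1:**
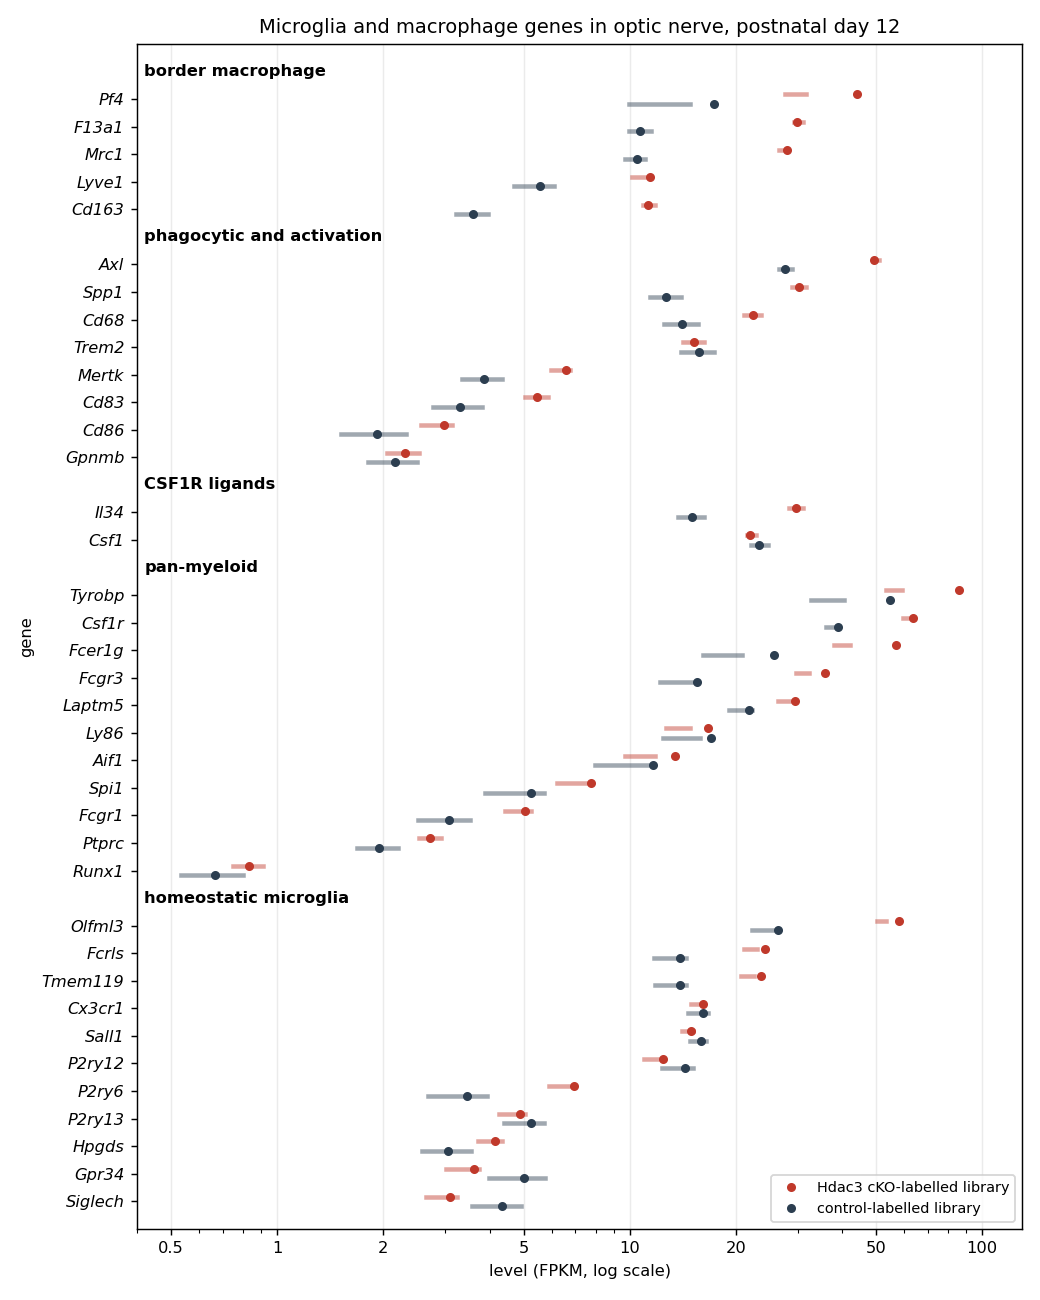
Level of each of the 37 members in FPKM (log scale) in the library labelled cKO (red, upper point) and the library labelled control (dark, lower point), by role, with points for the deposited FPKM and bars for the deposited intervals, 1 library each. The 5 border macrophage genes lie at 11.2 to 44.0 FPKM in the library labelled cKO and at 3.59 to 17.4 FPKM in the library labelled control, while Cx3cr1, Sall1, Trem2, Ly86 and Csf1 have overlapping bars.

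Border macrophage genes had the largest median difference of the 5 roles. Their summed level was 124 FPKM in the library labelled cKO and 47.7 FPKM in the library labelled control, and their share of all member FPKM was 15.5% in cKO and 9.83% in control. All 5 were higher in the library labelled cKO with separate intervals, 4 of them past 2-fold, and their median log2 difference was 1.33. Because all 5 lay higher, promoter windows are shown for the 4 of them that have one in the RefSeq table of build GRCm38.p6, with Fcgr3 and Cx3cr1 as members past 2-fold and near 0. Each window runs from 250 bases before to 50 bases after a start site on the gene's own strand, and the most upstream start site was taken. Capitals mark GAGGAA or its reverse complement TTCCTC, the core of the motif bound by PU.1. Coordinates of the windows are of GRCm38 and differ from those of the deposited tables, which are of mm9.
Mrc1: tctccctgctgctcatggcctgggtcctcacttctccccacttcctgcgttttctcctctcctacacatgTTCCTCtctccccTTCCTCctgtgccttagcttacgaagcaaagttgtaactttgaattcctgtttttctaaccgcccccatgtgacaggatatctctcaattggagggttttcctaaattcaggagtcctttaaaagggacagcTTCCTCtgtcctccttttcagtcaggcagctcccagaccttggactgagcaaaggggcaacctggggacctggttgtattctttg
F13a1: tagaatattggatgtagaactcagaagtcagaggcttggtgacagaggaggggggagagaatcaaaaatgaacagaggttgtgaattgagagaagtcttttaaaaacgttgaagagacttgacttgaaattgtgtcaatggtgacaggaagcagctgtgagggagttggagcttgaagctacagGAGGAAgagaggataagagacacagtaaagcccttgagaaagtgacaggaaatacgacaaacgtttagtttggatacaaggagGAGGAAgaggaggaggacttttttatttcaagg
Pf4: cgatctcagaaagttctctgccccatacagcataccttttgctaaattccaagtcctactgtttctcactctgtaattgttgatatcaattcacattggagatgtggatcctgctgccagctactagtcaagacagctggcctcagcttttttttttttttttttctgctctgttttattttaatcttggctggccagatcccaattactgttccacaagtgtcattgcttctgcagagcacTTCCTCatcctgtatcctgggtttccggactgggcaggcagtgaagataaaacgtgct
Cd163: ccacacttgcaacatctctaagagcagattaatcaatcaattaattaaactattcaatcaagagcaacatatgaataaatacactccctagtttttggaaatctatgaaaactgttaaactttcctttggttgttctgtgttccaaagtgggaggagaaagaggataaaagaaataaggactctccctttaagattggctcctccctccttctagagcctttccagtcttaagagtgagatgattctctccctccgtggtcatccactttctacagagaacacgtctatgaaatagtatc
Fcgr3: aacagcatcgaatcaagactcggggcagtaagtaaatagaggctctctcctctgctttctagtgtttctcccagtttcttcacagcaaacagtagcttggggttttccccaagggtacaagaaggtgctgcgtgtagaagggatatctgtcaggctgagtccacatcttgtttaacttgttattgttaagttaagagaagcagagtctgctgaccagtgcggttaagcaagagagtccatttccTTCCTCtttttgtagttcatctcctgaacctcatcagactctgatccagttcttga
Cx3cr1: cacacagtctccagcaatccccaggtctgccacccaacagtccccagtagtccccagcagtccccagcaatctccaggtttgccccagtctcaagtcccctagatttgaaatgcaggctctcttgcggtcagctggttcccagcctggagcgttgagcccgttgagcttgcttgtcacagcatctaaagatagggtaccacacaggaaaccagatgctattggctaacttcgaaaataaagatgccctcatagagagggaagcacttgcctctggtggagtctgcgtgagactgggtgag

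The Mrc1 window (chr2:14229164-14229463, plus strand) held 3 matches, all TTCCTC, starting 180, 167 and 35 bases before the start site. The F13a1 window (chr13:37050195-37050494, minus strand) held GAGGAA 66 bases before and 17 bases after it. The Pf4 window (chr5:90772185-90772484, plus strand) held TTCCTC 8 bases before the start site, and the Fcgr3 window (chr1:171059354-171059653, minus strand) held it 6 bases before. No match was in the windows of Cd163 (chr6:124304401-124304700, plus strand) and Cx3cr1 (chr9:120068247-120068546, minus strand). Of the 27 members with a window, 16 (59.3%) held the motif on either strand, beside 28.3% of the 27025 symbols in the table. By role this was 3 of 4 border macrophage, 4 of 8 homeostatic, 5 of 8 shared myeloid and 4 of 6 phagocytic genes. A match in these letters is not evidence of binding, and the windows of Cd163 and Cx3cr1 say nothing of PU.1 at sites outside them. Csf1r, P2ry6, Tmem119, Tyrobp, Gpr34, Lyve1, Spi1, Il34, Cd83 and Cd86 have no window in the table.

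Cd163, the receptor that clears haemoglobin bound to haptoglobin (mm9 chromosome 6, 124254669 to 124280545), had the largest log2 difference of the members. It was at 11.2 FPKM in the library labelled cKO (deposited interval 10.9 to 11.8) and at 3.59 FPKM in the library labelled control (3.21 to 3.97), a log2 difference of 1.41, and 1.94% of all tested genes had a larger one. It fell short of 2-fold with a pseudocount of 5 FPKM, at 0.92. F13a1, the A subunit of coagulation factor XIII (mm9 chromosome 13, 36959047 to 37142113), was at 29.8 FPKM in the library labelled cKO (29.2 to 30.9) and 10.7 FPKM in the library labelled control (9.93 to 11.5), a log2 difference of 1.40. Among the 37 members it ranked 9 by level in the library labelled cKO and 21 in the library labelled control.

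Mrc1, the mannose receptor CD206 (mm9 chromosome 2, 14151041 to 14253650), was at 27.9 FPKM in the library labelled cKO (26.4 to 27.8) and at 10.5 FPKM in the library labelled control (9.66 to 11.1), a log2 difference of 1.33. Mrc1 and F13a1 were the only members counted higher in each of 9 other settings of pseudocount, scaling, minimum, entry and level. Pf4, the chemokine CXCL4 of platelets and border macrophages (mm9 chromosome 5, 91201461 to 91202409), was at 44.0 FPKM in the library labelled cKO and 17.4 FPKM in the library labelled control, a log2 difference of 1.29. Both Pf4 values lay above their intervals, 27.5 to 31.6 in cKO and 9.98 to 14.8 in control, and the difference was 0.97 after scaling to the same sum. Lyve1, a hyaluronan receptor of lymphatic endothelium and of some macrophages (mm9 chromosome 7, 117994121 to 118006467), was at 11.4 FPKM in the library labelled cKO (10.2 to 11.3) and 5.55 FPKM in the library labelled control (4.68 to 6.11), a log2 difference of 0.92. Its ratio of 2.06 was past 2-fold without a pseudocount, and it was counted with a pseudocount of 0.1 FPKM, at 1.03.

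**Figure D2:**
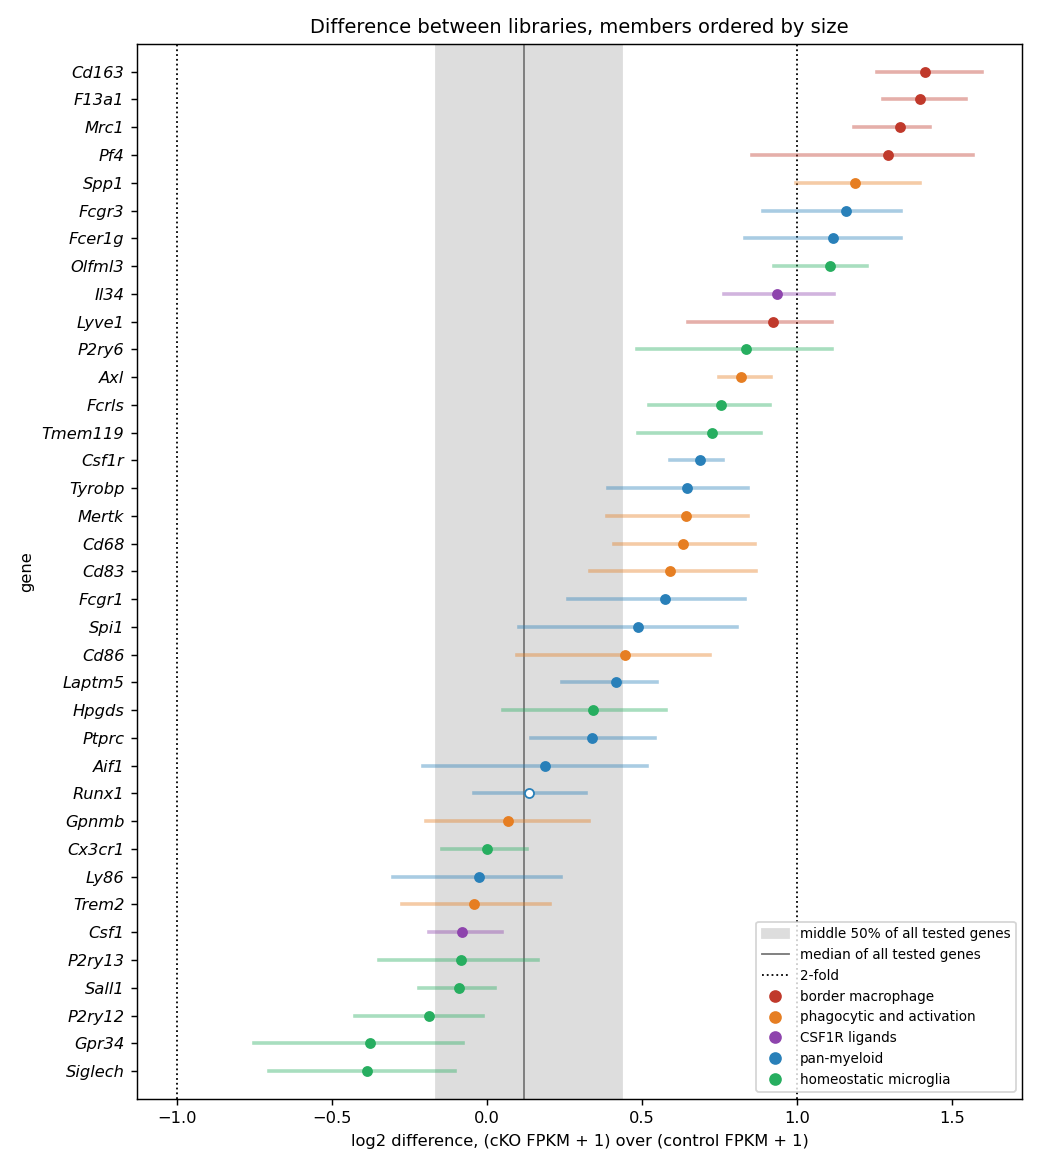
Log2 difference of each member, cKO-labelled over control-labelled, ordered by size and coloured by role, where bars span the differences given by the deposited interval bounds, the open point is Runx1, which was not counted, the grey band is the middle 50% of all tested genes and dotted lines mark 2-fold. Cd163, F13a1, Mrc1 and Pf4 stand at the top, from 1.41 to 1.29, and Gpr34 and Siglech at the bottom, at -0.38 and -0.39.

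Several of these genes also mark other cells. Of 6 markers of lymphatic endothelium, where Lyve1 is also found, 4 were tested and 0 of these were counted in either direction. Of all tested genes 4.73% were counted higher and 4.51% lower, so 0 of 4 is near that share. Of the 2 not tested, Mmrn1 was under 1 FPKM in both libraries, and Ccl21a, with the status LOWDATA, was listed at 0.0801 FPKM in cKO and 2.99 FPKM in control. Both are named with their values known. Of the tested markers, the transcription factor Prox1 was at 5.68 FPKM in the library labelled cKO and 8.60 FPKM in the library labelled control (log2 -0.52), Pdpn at 74.1 FPKM in cKO and 60.9 FPKM in control (log2 0.28) and Reln at 6.49 FPKM in cKO and 3.54 FPKM in control (log2 0.72). Of 7 markers of platelets and megakaryocytes, the other source of Pf4, 5 stayed under 1 FPKM in both libraries, among them Ppbp at 0.131 FPKM in cKO and 0.0827 FPKM in control and Gp9 at 0.132 FPKM in cKO and 0.119 FPKM in control, both named after their values were seen. Of the other 2, Gp1bb was counted lower in the library labelled cKO, at 4.16 FPKM in cKO and 10.7 FPKM in control (log2 -1.18, not counted with a pseudocount of 5 FPKM), and Itga2b was at 2.03 FPKM in cKO and 1.08 FPKM in control (log2 0.54). The part of these cells in the values of Lyve1 and Pf4 was not tested, nor was the part of other cells in the values of these markers.

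The homeostatic microglia genes divided into genes near 0, genes below it and genes above it. Their summed level was 172 FPKM in the library labelled cKO and 122 FPKM in the library labelled control, with Olfml3 the most abundant of them in both. Their median log2 difference was 0.00, with 5 members above 0 and 6 below, and after scaling to the same sum it was -0.31. Of the 11, 1 (9.09%) was counted higher and 0 lower, beside 4.73% and 4.51% of all tested genes.

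Cx3cr1, the fractalkine receptor (mm9 chromosome 9, 119957801 to 119977414), was at 16.2 FPKM in both libraries, with deposited intervals of 14.9 to 16.1 in the library labelled cKO and 14.7 to 16.6 in the library labelled control. Sall1, the transcription factor of microglial identity, was at 14.9 FPKM in the library labelled cKO and 15.9 FPKM in the library labelled control (log2 -0.09). P2ry13, an ADP receptor, was at 4.88 FPKM in cKO and 5.24 FPKM in control (log2 -0.09). The intervals of these 3 genes overlapped.

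P2ry12, the ADP receptor by which microglial processes find injury (mm9 chromosome 3, 59020193 to 59066753), was at 12.4 FPKM in the library labelled cKO (11.0 to 12.2) and 14.3 FPKM in the library labelled control (12.3 to 15.1), a log2 difference of -0.19. Gpr34, a receptor for lysophosphatidylserine, was at 3.62 FPKM in the library labelled cKO (3.001 to 3.73) and 5.002 FPKM in the library labelled control (3.99 to 5.74), a log2 difference of -0.38. Siglech, a sialic acid-binding lectin, was at 3.09 FPKM in the library labelled cKO (2.63 to 3.24) and 4.34 FPKM in the library labelled control (3.57 to 4.93), a log2 difference of -0.39. These were the 3 members that lay lower in the library labelled cKO with separate intervals, all by less than 2-fold, and their differences stayed below 0 under each of the 3 scalings. For P2ry12 the cKO value lay above its own interval and inside that of control, so its separation rests on an interval without its own estimate.

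The other homeostatic genes lay higher in the library labelled cKO with separate intervals. Olfml3, a secreted olfactomedin-like protein (mm9 chromosome 3, 103539317 to 103541924), was at 58.1 FPKM in the library labelled cKO (50.3 to 53.2) and 26.4 FPKM in the library labelled control (22.2 to 26.0), a log2 difference of 1.11. Both values lay above their intervals, and the difference fell short of 2-fold after centring on the median, at 0.99, and after scaling to the same sum, at 0.78. Tmem119, a transmembrane marker of microglia, was at 23.6 FPKM in the library labelled cKO and 13.9 FPKM in the library labelled control (log2 0.73), and Fcrls, an Fc receptor-like scavenger receptor, at 24.2 FPKM in cKO and 13.9 FPKM in control (log2 0.75). P2ry6, the UDP receptor linked to phagocytosis, was at 6.94 FPKM in cKO and 3.45 FPKM in control (log2 0.84), and Hpgds, a prostaglandin D synthase, at 4.14 FPKM in cKO and 3.06 FPKM in control (log2 0.34). The ratio of P2ry6 was 2.01 without a pseudocount, and its log2 difference was 0.99 with a pseudocount of 0.1 FPKM. Markers used side by side for microglia therefore gave different answers here: Tmem119 was 1.70 times as high in the library labelled cKO, Cx3cr1 at the same level and P2ry12 0.869 times.

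Ratios within a library do not depend on how the libraries are scaled. The geometric mean of the 5 border macrophage genes was 2.07 times that of the 11 homeostatic genes in the library labelled cKO and 0.947 times in the library labelled control. Mrc1 stood at 1.73 times the level of Cx3cr1 in the library labelled cKO and at 0.649 times in the library labelled control, so their order turned round. The same held for F13a1, at 1.84 times the level of Cx3cr1 in cKO and 0.662 times in control. Relative to Csf1r, which both kinds of cell express, Mrc1 was at 0.440 in the library labelled cKO and 0.269 in the library labelled control, while Cx3cr1 was at 0.255 in cKO and 0.414 in control. The corresponding ratio of the phagocytic genes to the homeostatic genes was 0.988 in cKO and 0.767 in control. The difference between the median log2 differences of the border and homeostatic genes, a contrast chosen after the values were seen, was 1.33. It ranged from 1.09 with a pseudocount of 5 FPKM to 1.40 with a pseudocount of 0.1 FPKM over 9 other settings.

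**Figure D3:**
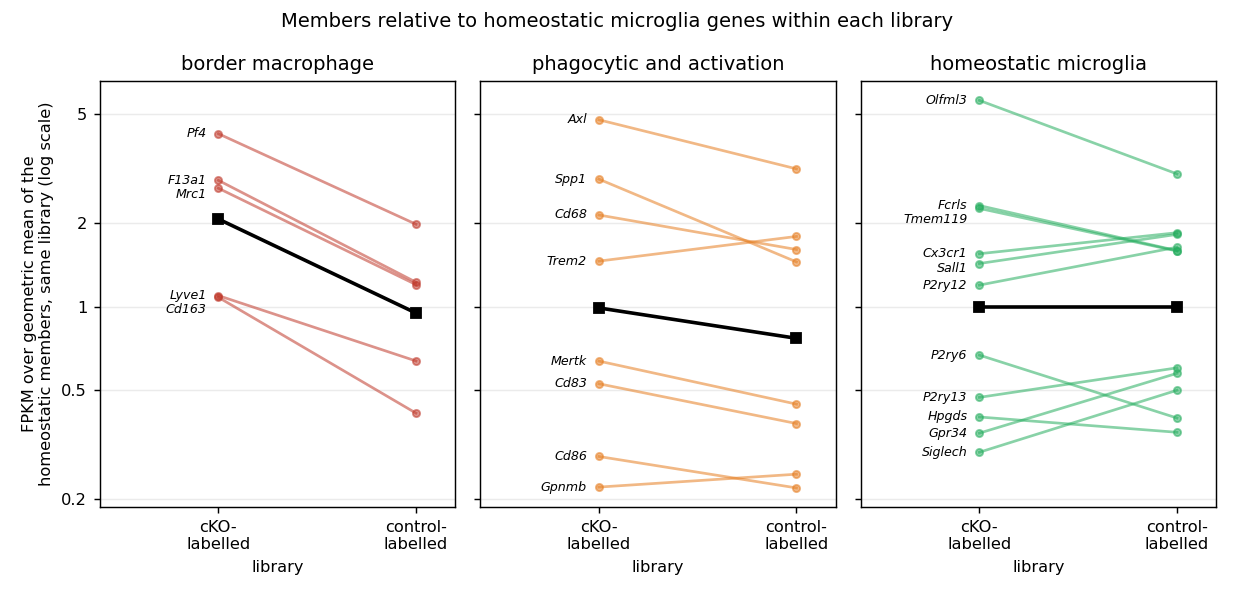
Level of each border macrophage, phagocytic and homeostatic member divided by the geometric mean of the 11 homeostatic members of the same library (log scale), cKO-labelled on the left and control-labelled on the right of each panel, with coloured lines for genes and black squares for the geometric mean of the role. All 5 border macrophage lines are higher in the library labelled cKO, with means of 2.07 in cKO and 0.947 in control, and the homeostatic lines cross.

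Among genes shared across myeloid cells, 2 of 10 tested (20%) were counted higher and 0 lower, beside 4.73% and 4.51% of all tested genes. The median log2 difference of these 10 was 0.53. Tyrobp, the adaptor DAP12 that carries the signal of TREM2, was the most abundant member in both libraries, at 86.1 FPKM in the library labelled cKO and 54.7 FPKM in the library labelled control (log2 0.64). Both values lay above their intervals, 53.3 to 59.2 in cKO and 32.6 to 40.4 in control, and the control value lay inside the interval of cKO. Fcer1g, the common gamma chain of Fc receptors (mm9 chromosome 1, 173159703 to 173164480), was at 56.9 FPKM in the library labelled cKO and 25.7 FPKM in the library labelled control, a log2 difference of 1.12, and Fcgr3, the low-affinity IgG receptor that signals through it (mm9 chromosome 1, 172981300 to 172989534), at 35.8 FPKM in cKO and 15.5 FPKM in control, a log2 difference of 1.16. All 4 of these values lay above their intervals. Fcer1g fell short of 2-fold after centring on the median (0.997) and scaling to the same sum (0.79), and Fcgr3 after scaling to the same sum (0.83) and with a pseudocount of 5 FPKM (0.99). Fcgr1, the high-affinity IgG receptor, was at 5.05 FPKM in cKO and 3.07 FPKM in control (log2 0.57).

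Csf1r, the receptor on which microglia and most tissue macrophages depend, was at 63.5 FPKM in the library labelled cKO (59.5 to 61.7) and 39.0 FPKM in the library labelled control (36.0 to 39.2), a log2 difference of 0.69. Laptm5, a lysosomal membrane protein of blood cells, was at 29.5 FPKM in cKO and 21.9 FPKM in control (log2 0.42), Spi1 at 7.78 FPKM in cKO and 5.26 FPKM in control (log2 0.49) and Ptprc, the pan-leukocyte phosphatase CD45, at 2.72 FPKM in cKO and 1.94 FPKM in control (log2 0.34). Aif1, which encodes the histological marker IBA1, was at 13.4 FPKM in the library labelled cKO and 11.7 FPKM in the library labelled control (log2 0.19), with overlapping intervals and a difference of -0.12 after scaling to the same sum. Ly86, the secreted partner of the receptor CD180, was at 16.7 FPKM in cKO and 16.99 FPKM in control (log2 -0.03), also with overlapping intervals. The levels of shared myeloid genes thus ranged from a ratio of 0.981 for Ly86 to 2.31 for Fcgr3 between the same libraries.

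The ligands of CSF1R went separate ways. Il34, a ligand made in the brain mainly by neurons, was at 29.5 FPKM in the library labelled cKO (28.3 to 30.9) and 15.0 FPKM in the library labelled control (13.7 to 16.3), a log2 difference of 0.94 that did not reach 2-fold. Csf1, the ligand made by many cell types including glia, was at 21.96 FPKM in the library labelled cKO (21.5 to 22.8) and 23.3 FPKM in the library labelled control (22.1 to 24.6), a log2 difference of -0.08 with overlapping intervals. Csf1 was therefore below Il34 in cKO and above it in control.

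Of the 8 phagocytic and activation genes, 1 (12.5%) was counted higher and 0 lower, beside 4.73% and 4.51% of all tested genes. The median log2 difference of the 8 was 0.61. Spp1, osteopontin (mm9 chromosome 5, 104864130 to 104870072), was at 30.1 FPKM in the library labelled cKO (28.9 to 31.6) and 12.7 FPKM in the library labelled control (11.4 to 14.0), a log2 difference of 1.19. It fell short of 2-fold with a pseudocount of 5 FPKM (0.99) and after scaling to the same sum (0.86). Cd68, a lysosomal glycoprotein of phagocytes, was at 22.3 FPKM in the library labelled cKO and 14.1 FPKM in the library labelled control (log2 0.63). The activation marker Cd83 was at 5.46 FPKM in cKO and 3.29 FPKM in control (log2 0.59), and the T cell costimulator Cd86 at 2.98 FPKM in cKO and 1.92 FPKM in control (log2 0.44). Trem2, the lipid-sensing receptor that signals through TYROBP, was at 15.2 FPKM in the library labelled cKO (14.2 to 16.2) and 15.7 FPKM in the library labelled control (14.0 to 17.4), a log2 difference of -0.04. Gpnmb, a glycoprotein of lipid-laden macrophages and pigment cells, was at 2.31 FPKM in cKO and 2.16 FPKM in control (log2 0.07). The intervals overlapped for Trem2 and Gpnmb and were separate for the other members of this role.

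AXL, MERTK and TYRO3 are related receptor tyrosine kinases with roles in the uptake of dying cells. GAS6 binds all of them, and PROS1 binds MERTK and TYRO3. Axl was at 49.4 FPKM in the library labelled cKO (49.2 to 51.0) and 27.5 FPKM in the library labelled control (26.6 to 28.9), a log2 difference of 0.82. Mertk was at 6.60 FPKM in cKO (5.99 to 6.77) and 3.87 FPKM in control (3.33 to 4.35), a log2 difference of 0.64. Tyro3, which is not a member, was lower in the library labelled cKO, at 12.1 FPKM in cKO and 47.8 FPKM in control (log2 -1.90), and the ligands, named here after their values were seen, were at 43.1 FPKM in cKO and 27.4 FPKM in control for Gas6 (log2 0.63) and 48.6 FPKM in cKO and 26.1 FPKM in control for Pros1 (log2 0.87). Astrocytes also express Mertk and Axl, and the astrocyte transporter Slc1a3 was at 481 FPKM in cKO and 288 FPKM in control (log2 0.74). The astrocyte gene Aqp4 went the other way, at 153 FPKM in cKO and 181 FPKM in control (log2 -0.24), and Gfap had no estimate in cKO. The part of astrocytes in these differences was not tested.

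Other myeloid genes were taken from lists that hold no member and were drawn up with earlier results of these data known. Of 22 tested among 23 other border macrophage genes, 9 (40.9%) were counted higher in the library labelled cKO and 0 lower, beside 4.73% and 4.51% of all tested genes. Their median log2 difference was 0.96. After scaling to the same sum, 2 were counted, Cbr2 and Clec10a, with a median of 0.68, and with a pseudocount of 5 FPKM, 2 were counted, Cbr2 and Colec12. With equal upper quartiles 6 were counted, after centring 5, and with a pseudocount of 0.1 FPKM 18. Of all 14154 tested genes, 215 were counted higher after scaling to the same sum and 282 with a pseudocount of 5 FPKM. With equal upper quartiles these were 535, after centring 439, and with a pseudocount of 0.1 FPKM 1156. Cbr2, a carbonyl reductase of border macrophages, was at 59.3 FPKM in the library labelled cKO and 20.2 FPKM in the library labelled control (log2 1.51), and the lectin Clec10a at 12.9 FPKM in cKO and 4.29 FPKM in control (log2 1.40). Colec12, a scavenger receptor also found outside macrophages, was at 94.6 FPKM in cKO and 42.2 FPKM in control (log2 1.14), and Ednrb, which astrocytes also express, at 354 FPKM in cKO and 212 FPKM in control (log2 0.74).

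Of 13 tested among 15 other homeostatic microglia genes, 0 were counted in either direction, beside 4.73% higher and 4.51% lower of all tested genes. Their median log2 difference was 0.36 (0.05 after scaling to the same sum). Itgb5, an integrin subunit, was at 41.9 FPKM in cKO and 26.4 FPKM in control (log2 0.65), Adap2 at 6.17 FPKM in cKO and 3.54 FPKM in control (log2 0.66) and Crybb1 at 3.56 FPKM in cKO and 1.62 FPKM in control (log2 0.80). Of 32 other shared myeloid genes, 2 (6.25%) were counted higher and 1 (3.1%) lower, near the 4.73% and 4.51% of all tested genes. The median log2 difference of the 32 was 0.42. The 2 higher were Cyba, a subunit of the phagocyte oxidase, at 47.4 FPKM in cKO and 23.2 FPKM in control, and Alox5ap, of leukotriene synthesis, at 17.3 FPKM in cKO and 8.13 FPKM in control, both just past 2-fold as deposited and below it under each of the 3 scalings and with a pseudocount of 5 FPKM. Alox5ap was named after its values were seen. The lower one was Plcg2, a phospholipase of immune receptor signalling, at 2.70 FPKM in the library labelled cKO and 8.28 FPKM in the library labelled control (log2 -1.33), and it too was not counted with a pseudocount of 5 FPKM. Ctss, a lysosomal protease abundant in microglia, was at 54.5 FPKM in cKO and 50.2 FPKM in control (log2 0.12).

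A list of 18 lectin, Fc and immunoglobulin-like receptors, drawn up around the adaptors TYROBP and FCER1G, had 8 tested genes. Of these, 4 (50%) were counted higher and 0 lower, beside 4.73% and 4.51% of all tested genes. The counts were 4 and 0 under each of the 3 scalings, and 0 higher with a pseudocount of 5 FPKM. Clec4n, Dectin-2, which signals through FCER1G, was at 7.75 FPKM in the library labelled cKO and 2.54 FPKM in the library labelled control (log2 1.30), and its neighbour in family Clec4a1 at 6.93 FPKM in cKO and 2.03 FPKM in control (log2 1.39). Pirb, an inhibitory receptor that does not depend on these adaptors, was at 5.31 FPKM in cKO and 1.42 FPKM in control (log2 1.38). The other one was Clec4a3, named after its values were seen, at 5.29 FPKM in cKO and 1.52 FPKM in control (log2 1.32). Fcgr2b, the inhibitory IgG receptor, was at 58.0 FPKM in cKO and 31.1 FPKM in control (log2 0.88). Genes of the Clec4a, Pirb, Ms4a6 and Fcgr families have near copies, and the labels do not state how reads were divided among them, so their levels are uncertain.

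Of 24 tested among 25 genes of phagocytosis and lipid handling, 1 (4.17%) was counted higher (Igf1, a growth factor, at 8.80 FPKM in cKO and 3.61 FPKM in control, log2 1.09) and 3 (12.5%) lower (Tyro3, Elmo1 and Fabp5), beside 4.73% and 4.51% of all tested genes. Their median log2 difference was 0.48 (0.15 after scaling to the same sum). Regardless of size, 17 (70.8%) lay higher with separate intervals and 6 (25%) lower, beside 38.4% and 22.5% of all tested genes. Igf1 fell short of 2-fold after scaling to the same sum, after centring on the median and with a pseudocount of 5 FPKM, and Elmo1 with that pseudocount. Fabp5, a fatty acid-binding protein, was at 115 FPKM in the library labelled cKO and 340 FPKM in the library labelled control (log2 -1.55). Apoe, the main lipoprotein of glia, was at 4420 FPKM in cKO and 3152 FPKM in control (log2 0.49), and the lysosomal protease Ctsd at 422 FPKM in cKO and 331 FPKM in control (log2 0.35). Elmo1, of the engulfment machinery, was at 6.43 FPKM in cKO and 16.4 FPKM in control (log2 -1.23). Igf1 and Elmo1 were named after their values were seen.

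**Figure D4:**
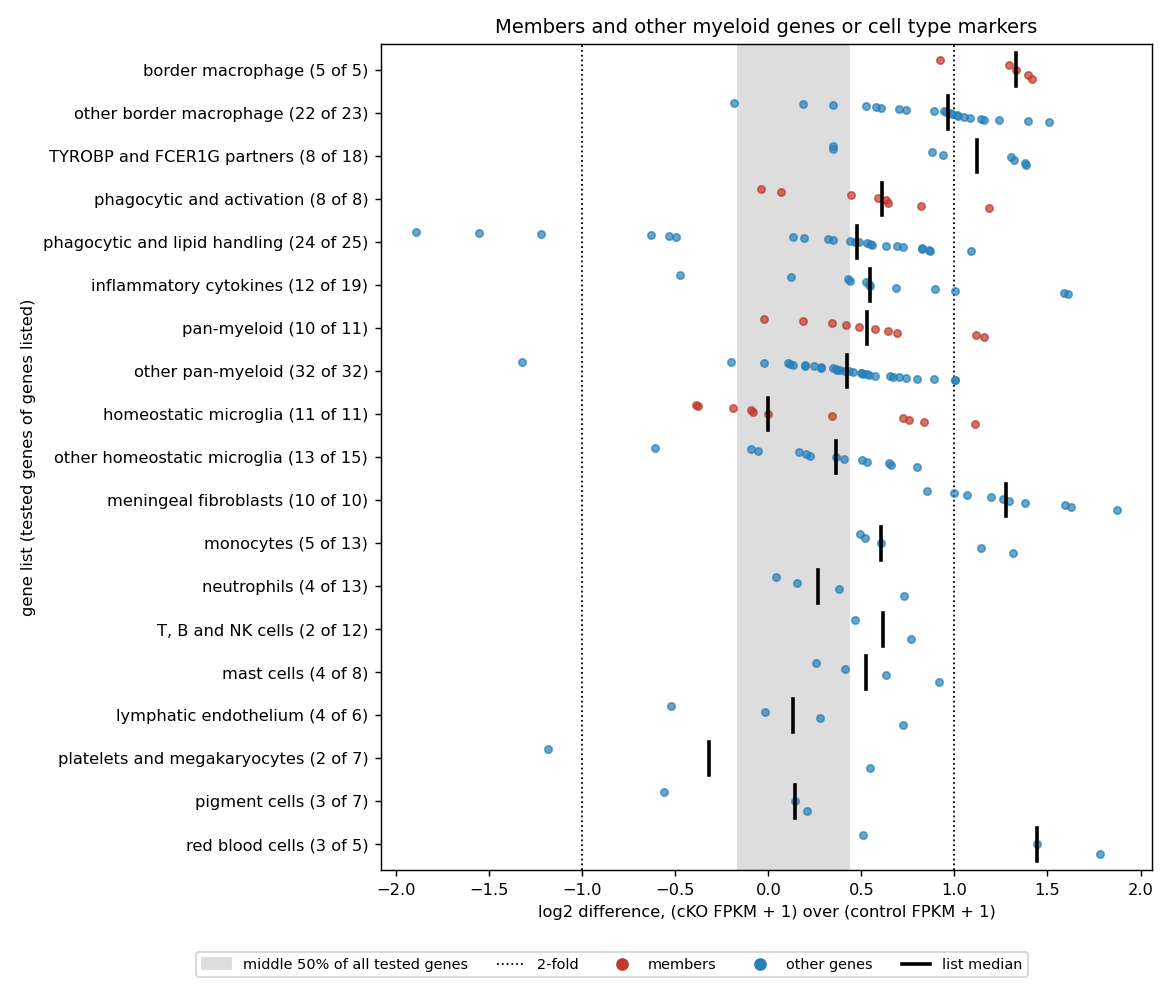
Log2 difference, cKO-labelled over control-labelled, of each tested gene by list, with members in red and other genes in blue, where black bars are list medians, the grey band the middle 50% of all tested genes and dotted lines 2-fold, and the numbers give tested genes of genes listed. Border macrophage members (median 1.33), other border macrophage genes (0.96) and meningeal fibroblast markers (1.28) lie to the right of homeostatic microglia members (0.00).

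Markers of meningeal fibroblasts and of red blood cells moved with the border macrophage genes. Of 10 fibroblast markers, a list added with earlier results known, 9 (90%) were counted higher and 0 lower, beside 4.73% and 4.51% of all tested genes. The median log2 difference of the 10 was 1.28. After scaling to the same sum 4 were counted, with a median of 0.94, and 7 with equal upper quartiles, after centring or with a pseudocount of 5 FPKM. Their summed level was 4421 FPKM in the library labelled cKO and 1874 FPKM in the library labelled control, with members at 21.7 to 1665 FPKM in cKO and 8.91 to 679 FPKM in control, and none was at 0. Slc22a6, a transporter of the leptomeninges, was at 47.9 FPKM in cKO and 12.3 FPKM in control (log2 1.88) and Col1a2 at 704 FPKM in cKO and 335 FPKM in control (log2 1.07), with Igf2 at 1665 FPKM in cKO and 679 FPKM in control (log2 1.29) and Dcn at 429 FPKM in cKO and 138 FPKM in control (log2 1.63). Of 5 red blood cell genes, 2 of 3 tested (66.7%) were counted higher and 0 lower, beside the same shares of all tested genes. The 2 were Hba-a1 at 143 FPKM in cKO and 40.9 FPKM in control and Hbb-b1 at 121 FPKM in cKO and 43.8 FPKM in control. Both share reads with near copies. The summed level of the list was 265 FPKM in cKO and 85.4 FPKM in control. The other tested gene of this list, Alas2, was at 1.29 FPKM in cKO and 0.607 FPKM in control (log2 0.51), with separate intervals. The erythroid gene Slc4a1 stayed under 1 FPKM in both libraries. Alas2 and Slc4a1 were named after their values were seen. Whether these cells had a part in the border macrophage difference was not tested, and the labels do not state how much meningeal sheath each preparation held.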

How the data were processed

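Total RNA of frozen optic nerves was taken with Trizol and sequenced from Illumina TruSeq libraries, per the labels' protocols. The submitters' processing notes name CASAVA, TopHat, Cufflinks and mm9, with versions and settings not given in the sources used here. The authors deposited FPKM per gene with interval bounds and a status, per the file headers, and the columns for length and coverage are empty, so counts and depth are unknown. Tables were matched by symbol, start site group and locus (24460 entries), and a symbol with several entries was represented by the one with the highest summed FPKM. Deposited start coordinates count from 0 (10444 spans equal the RefSeq gene length without adding 1) and are printed counting from 1.

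Genes with OK status in both libraries and at least 1 FPKM in at least 1 were tested, as described with the results. No p-value was computed. The calculation was tested on simulated data with changes larger than 2-fold and intervals centred on the estimate. That simulation does not check calls near 2-fold or values outside their own interval. Python 3.11.15, pandas 2.3.3 and numpy 2.4.6 were used. List genes named by current symbols were matched to 3 older symbols through RefSeq synonyms, and 1 list gene has no entry. All 37 members are named. In each other list, the top 2 tested genes by mean FPKM and the top 2 by absolute log2 difference are named, and any further gene is said to be chosen after its values were seen. Some genes of these lists are not reported here by name. Members and lists were chosen with earlier results of these data known. Alternatives were pseudocounts of 0.1 and 5 FPKM, scaling to the same sum or upper quartile, centring on the median of tested genes, no minimum or a minimum of 5 FPKM, the sum of all entries, a 1.5-fold threshold and no interval rule. The interval midpoint as the level and the alternatives for fibroblast markers were added after seeing the data.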

Additional observations from a re-analysis of the deposited data

How the results depend on the processing

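No paired analysis was possible because there was 1 library per group, and leaving out a library was not possible either. The count of 8 members higher in the library labelled cKO became 5 with a pseudocount of 5 FPKM, 3 after scaling to the same sum and 19 with a 1.5-fold threshold, and was 6 to 9 in the other alternatives. The count of 0 members lower held in all 11 alternatives. Scaling to the same sum gave a median over all tested genes of -0.17, against 0.12 as deposited, and medians of 0.31 (tested members), -0.31 (homeostatic), 0.31 (phagocytic) and 1.01 (border macrophage). It left 215 genes of all tested counted higher and 963 lower, against 669 and 638 as deposited, 535 and 694 with equal upper quartiles, and 439 and 761 after centring. A pseudocount of 5 FPKM moved the border macrophage median to 1.09 and its difference from the homeostatic median to 1.09, and left 282 genes counted higher and 339 lower. With a pseudocount of 0.1 FPKM these were 1156 and 823. The cause of these shifts was not tested. The sign of 3 of 37 members, Aif1, Runx1 and Gpnmb, depended on the scaling, 25 lay above 0 and 9 below 0 in every scaling. Depth is unknown, so no limit of detection can be given for low members such as Runx1.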

Other observations

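Genes of inflammatory signalling and markers of other blood cells were looked at beside the members. Of 12 tested among 19 cytokine, chemokine and innate receptor genes, 3 (25%) were counted higher in the library labelled cKO and 0 lower. Of all tested genes, 4.73% were counted higher and 4.51% lower. The median log2 difference of the 12 was 0.54 (0.31 after scaling to the same sum). Cxcl16, a membrane-bound chemokine, was at 25.8 FPKM in the library labelled cKO and 7.78 FPKM in the library labelled control (log2 1.61), and was counted in each scaling. Ccl5 was at 5.002 FPKM in cKO and 0.997 FPKM in control (log2 1.59), with the cKO value above its interval of 2.67 to 4.05, and was not counted with a pseudocount of 5 FPKM. Cd14 was at 11.6 FPKM in cKO and 5.29 FPKM in control, just past 2-fold as deposited and below it under each of the 3 scalings and with that pseudocount. Cxcl10, a chemokine induced by interferon, was at 9.498 FPKM in cKO and 13.6 FPKM in control (log2 -0.47). The cytokines Il1a, Il1b, Tnf and Il6 stayed under 1 FPKM in both libraries. Cd14 and these cytokines were chosen with their values known.

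Of 13 monocyte markers, 5 were tested. Of these, 2 (40%) were counted higher and 0 lower, beside 4.73% and 4.51% of all tested genes. Fn1 was not counted after scaling to the same sum, and Plac8 not with a pseudocount of 5 FPKM. Plac8 was at 6.63 FPKM in the library labelled cKO and 2.06 FPKM in the library labelled control (log2 1.32), and Fn1, which fibroblasts also make, at 319 FPKM in cKO and 144 FPKM in control (log2 1.14). Nr4a1 was at 10.7 FPKM in cKO and 7.14 FPKM in control (log2 0.52). The monocyte receptor Ccr2, chosen with its values known, was at 1.32 FPKM in cKO and 0.524 FPKM in control. Of 13 neutrophil markers (1 without an entry), 4 were tested, of 12 lymphoid markers 2, of 8 mast cell markers 4 and of 7 pigment cell markers 3, and 0 of these were counted in either direction. Of all tested genes 4.73% were counted higher and 4.51% lower, so 0 among so few genes is near that share. With a pseudocount of 0.1 FPKM, Cd79b, Mcpt4 and Tpsab1 were counted higher. The median log2 differences of the neutrophil, lymphoid, mast cell and pigment cell markers were 0.27, 0.61, 0.52 and 0.14. Their summed levels were 10.7 FPKM in cKO and 7.77 FPKM in control, 5.92 FPKM in cKO and 2.51 FPKM in control, 7.27 FPKM in cKO and 3.78 FPKM in control, and 6.15 FPKM in cKO and 7.02 FPKM in control. Their leading neutrophil genes were Cxcr2 at 4.003 FPKM in cKO and 2.85 FPKM in control, Csf3r at 2.77 FPKM in cKO and 2.67 FPKM in control and S100a9 at 1.04 FPKM in cKO and 0.228 FPKM in control. The lymphoid genes tested were Cd79b at 1.88 FPKM in cKO and 0.692 FPKM in control and Cd79a at 1.22 FPKM in cKO and 0.613 FPKM in control. The mast cell proteases Tpsb2, Mcpt4 and Tpsab1 were at 1.46 FPKM in cKO and 1.07 FPKM in control, 1.62 FPKM in cKO and 0.691 FPKM in control, and 1.73 FPKM in cKO and 0.448 FPKM in control. The pigment cell genes Tyr, Mitf and Pmel were at 2.54 FPKM in cKO and 2.199 FPKM in control, 1.77 FPKM in cKO and 3.096 FPKM in control, and 1.26 FPKM in cKO and 0.959 FPKM in control.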
